A study of Lotus japonicus with 12 samples.

Results

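The genes described here are 150 annotated genes of the legume Lotus japonicus whose transcripts were less abundant in mature than in young root nodules, in wild-type (WT) plants and in the cpop1 mutant alike. They were chosen from their own values. An annotated gene, with an ID that names 1 of the 6 chromosomes and does not end in _LC, was eligible if it reached 1 FPKM (fragments counted per transcript, scaled by its length in kilobases and by the library's total) in at least 3 of 12 libraries and averaged under 1000 FPKM. Its level in a group was the median over 3 libraries of log2(FPKM + 1). It was kept if that level was lower at 21 than at 10 days post inoculation (dpi) by at least 1 in both genotypes, and if cpop1 and WT differed by less than 1 at each age. The kept genes were ranked by the smaller of the falls in WT and in cpop1, and the first 150 were taken.

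Of 29531 features in the table, 20478 were annotated genes of this kind, 16770 of them reached the FPKM minimum, and 16701 were eligible. The falls passed in both genotypes for 679 genes, and 260 of these also met the limit on the genotype difference, from which the 150 members were taken. Since the selection read all 12 libraries and every contrast between the groups, the levels and changes below are a description. No p-value is given for a member, and counts of members called by a model over all features describe the spread within groups, not evidence for a change. The same holds where a named member is said to be called.

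A root nodule is the organ in which a legume houses nitrogen-fixing rhizobia. In Lotus japonicus nodules are determinate: cell division ceases early, and later growth comes mainly from enlargement of infected cells. Young nodules are therefore sites of infection and organ formation, while mature nodules fix nitrogen and hold leghemoglobin, a heme protein that buffers oxygen around the bacteroids. The series title names CPOP1 as an enzyme of heme synthesis, and the labels also call the mutant hemf2; HEMF is a name for coproporphyrinogen III oxidase, a late enzyme of that pathway.

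The samples were root nodules of plants inoculated with the M. loti strain MAFF 303099, in 4 groups of 3 libraries: WT at 10 dpi, WT at 21 dpi, cpop1 at 10 dpi and cpop1 at 21 dpi. All groups received the same inoculation. The labels give no mutation type for cpop1 and give no plant of origin for a library, so replicates may or may not stem from separate or pooled plants. The study set out to find pathways that depend on CPOP1 in young and mature nodules. The deposited IDs are not paired with gene names in the files, and 0 of them matched the RefSeq gene table, so genes are given by ID and the level of the mutated gene and of nodule marker genes was not analysed here.

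Totals of FPKM lay between 985272 and 1224719 per library, and the read depth is unknown. WT 10 dpi replicate 3 stood apart. Across the tested features, those with at least 1 FPKM in 3 libraries, its log2 levels had a mean correlation of 0.843 with replicates 1 and 2 and of 0.935 with the cpop1 libraries of the same age. Replicates 1 and 2 had a correlation of 0.989 with each other. Over the 150 members alone the corresponding values were 0.848, 0.856 and 0.989. The library was kept under its label, and results that rest on it are also given without it.

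Young nodules carried these transcripts at several times the level of mature ones in every library. The median over the 150 genes was 12.3, 13.1 and 20.1 FPKM in WT replicates 1 to 3 at 10 dpi, and 2.53, 2.76 and 2.86 FPKM at 21 dpi. In cpop1 it was 13.9, 14.7 and 15.2 FPKM at 10 dpi, and 3.53, 3.51 and 3.24 FPKM at 21 dpi. The highest mature library thus lay below the lowest young library in either genotype. In bulk nodules, fewer cells of a type and less RNA per cell cannot be told apart.

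**Figure D1:**
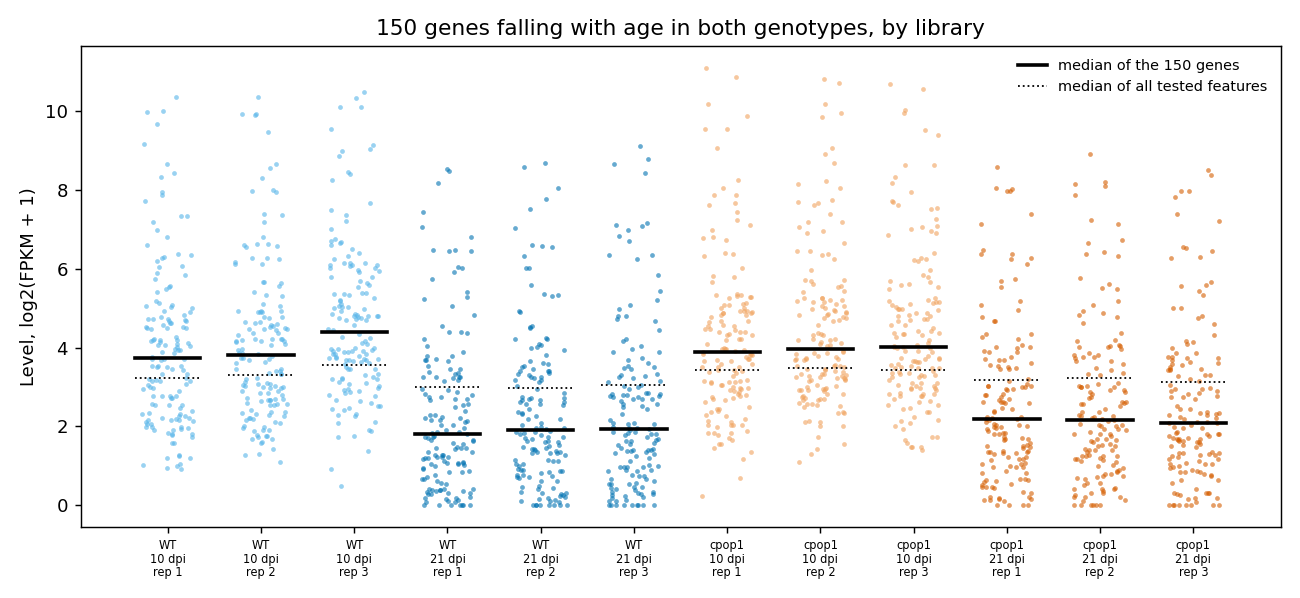
Level of each of the 150 genes, as log2(FPKM + 1), in each of the 12 libraries; each point is a gene, the thick line is the median of the 150 genes and the dotted line the median of all tested features in that library. The median of the 150 genes lay above that of all features in the 6 libraries of 10 dpi and below it in the 6 libraries of 21 dpi.

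Summed, the members made up 1.08 ± 0.162% of total FPKM in WT at 10 dpi and 0.277 ± 0.0368% at 21 dpi (SD, n = 3 libraries each). In cpop1 the shares were 1.22 ± 0.0394% and 0.262 ± 0.0118%. The WT share at 10 dpi was 0.987% without replicate 3, which alone stood at 1.27%. These sums lean on few genes: the 5 most abundant members held 48.7% of the summed FPKM at 10 dpi and 48.9% at 21 dpi.

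In WT the change from 10 to 21 dpi ranged from -1.19 to -3.36 on the log2(FPKM + 1) scale, with a median of -1.66. In cpop1 it ranged from -1.20 to -3.68, with a median of -1.70. The tested features as a whole had median changes of -0.18 (WT) and -0.20 (cpop1). Falls of at least 2 on this scale were reached by 40 members in WT, by 53 in cpop1 and by 22 in both. Expressed as the ratio of median FPKM, the middle member retained 22.3% of its young level in mature WT nodules and 22.7% in mature cpop1 nodules.

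LotjaGi2g1v0247000 had the largest fall by the ranking. Its WT libraries were at 32.2, 33.6 and 27.3 FPKM at 10 dpi and at 3.12, 3.81 and 2.46 FPKM at 21 dpi. The cpop1 libraries were at 28.8, 31.05 and 27.0 FPKM at 10 dpi and at 1.32, 0.83 and 1.32 FPKM at 21 dpi. The ages were far apart in both genotypes with close replicates, and the level changed by -3.01 in WT and by -3.68 in cpop1 on the log2 scale. Mature nodules retained 9.69% of the young median in WT and 4.58% in cpop1.

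LotjaGi1g1v0795200 was next in rank. In WT it stood at 17.5, 17.0 and 35.9 FPKM at 10 dpi and at 1.13, 1.84 and 1.97 FPKM at 21 dpi. In cpop1 it stood at 20.04, 24.96 and 24.6 FPKM at 10 dpi and at 2.33, 1.37 and 1.27 FPKM at 21 dpi. WT replicate 3 was the highest of the young libraries, and without it the young WT level was still many times the mature one. The log2 changes were -2.70 and -3.43.

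**Figure D2:**
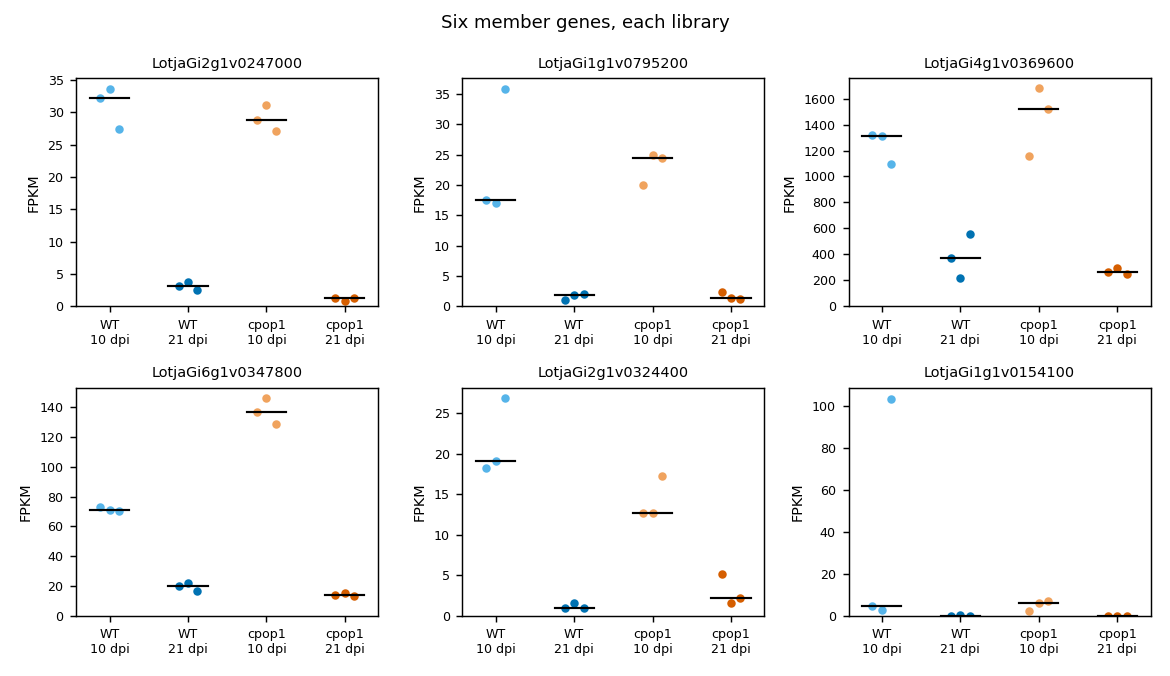
FPKM of 6 member genes in each library, by group, with the group median as a line; axes start at 0 and differ between panels. LotjaGi2g1v0247000 and LotjaGi1g1v0795200 have the largest falls, LotjaGi4g1v0369600 is among the most abundant, LotjaGi6g1v0347800 falls more in cpop1, LotjaGi2g1v0324400 falls more in WT, and LotjaGi1g1v0154100 has its highest value, 103 FPKM, in WT 10 dpi replicate 3.

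At the edge of the selection stood LotjaGi2g1v0309100, the last gene taken, with a smaller fall of 1.193, and LotjaGi1g1v0011300, the first left out, with 1.189. LotjaGi2g1v0309100 was at 25.3, 22.5 and 63.6 FPKM in young and 10.5, 9.63 and 10.6 FPKM in mature WT nodules, and its cpop1 fall of -2.14 was the larger. LotjaGi1g1v0011300 was at 2.32, 3.72 and 17.4 FPKM in young and 1.39, 0.72 and 1.07 FPKM in mature WT nodules. Within 0.1 of the last member's fall lay 26 members, that gene included, and 60 of the 110 genes left out by the rank, so the edge does not part distinct groups of genes.

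**Figure D3:**
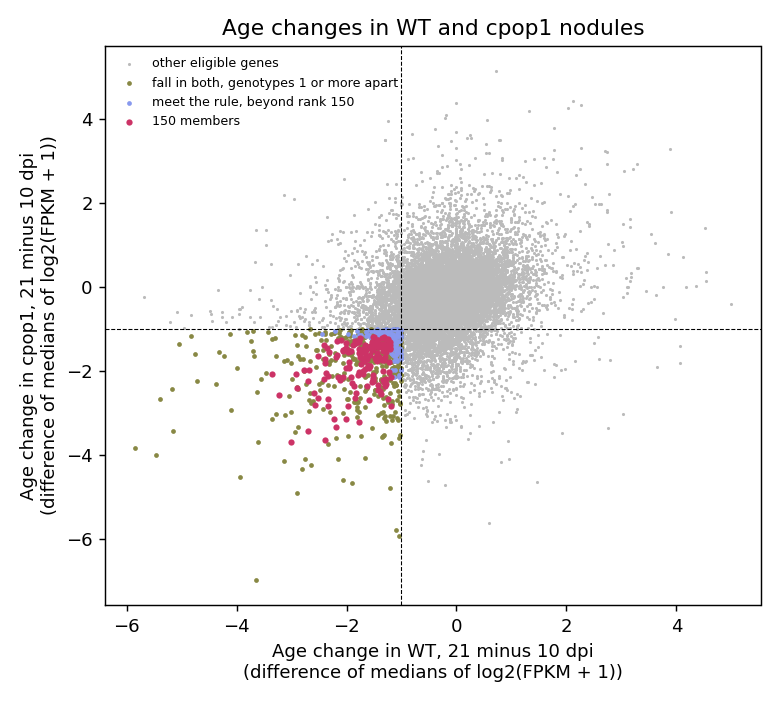
Age change in cpop1 (vertical) against age change in WT (horizontal), each as the difference between the group medians of log2(FPKM + 1) at 21 and 10 dpi; each point is 1 of 16701 eligible genes and dashed lines mark -1. The 150 members lie below and left of both lines by selection, with WT changes down to -3.36 and cpop1 changes down to -3.68.

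The falls were not equally visible in single libraries. In WT, 145 members had all young libraries above all mature ones, against 33% of tested features that were lower at 21 dpi without overlap. In cpop1 the count was 148, against 40.8% of tested features. Both genotypes were free of overlap for 143 members, against 18.7% of features. Without WT 10 dpi replicate 3 the WT count was 149, against 43.1% of features, and that for both genotypes 147, against 22.6%. A linear model fitted to all 22249 tested features (limma, Benjamini-Hochberg adjusted p under 0.05) called 147 members lower at 21 dpi in WT, where 24.4% of features were called lower, and 139 in cpop1, where 21.5% were. The selection used these contrasts, so the counts describe the spread within groups and nothing more. In each of the 9 pairings of a young with a mature library, the gap was at least 1 for 99 members in WT (4.23% of features) and for 108 in cpop1 (5.99%), and for 80 in both (1.14%). Without WT 10 dpi replicate 3 the WT count was 109 (5.53%) and that for both genotypes 85 (1.26%).

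Young levels spanned a wide range, from a mean of 1.87 to 1369 FPKM over the 6 libraries of 10 dpi, with a median of 16.1. Below 5 FPKM stood 19 members, 64 stood between 5 and 20, 47 between 20 and 100, and 20 at 100 or above. Because 1 is added before the logarithm, low genes show smaller log2 falls than their FPKM ratios would give. The members below 5 FPKM retained a median of 9.2% of their young FPKM in WT and 10% in cpop1, whereas those at 100 FPKM or above retained 33.7% and 26.1%. The median log2 falls of the same classes were close, at -1.52 and -1.53 for the lowest class and -1.56 and -1.94 for the highest. The smallest fall allowed by the selection is a higher proportional loss in a gene of low level, so this order of retained shares follows in part from the scale.

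LotjaGi4g1v0268300 had the highest mean of the members at 10 dpi over the 6 libraries of both genotypes, 1369 FPKM, a rank that rests on cpop1. Its mean was 1887 FPKM in young cpop1 nodules and 851 FPKM in young WT nodules, where LotjaGi4g1v0369600 and others were higher. WT libraries were at 1009, 977 and 566 FPKM at 10 dpi and at 358, 412 and 439 FPKM at 21 dpi. Those of cpop1 were at 2199, 1800.1 and 1661 FPKM at 10 dpi and at 252, 282 and 334 FPKM at 21 dpi. Young cpop1 nodules were above all young WT nodules, and mature cpop1 nodules were below all mature WT nodules. The log2 change was -1.24 in WT and -2.67 in cpop1, with 42.2% and 15.7% of the young median retained. At 21 dpi its mean over both genotypes, 346 FPKM, was barely above that of LotjaGi4g1v0207900, 344 FPKM. It was the higher of these genes in WT and the lower in cpop1.

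LotjaGi4g1v0369600 was next by the mean over both genotypes at 10 dpi and had the highest mean of the members in young WT nodules. It stood at 1318, 1309 and 1094 FPKM in young WT nodules and at 369, 218 and 559.7 FPKM in mature ones. In cpop1 the values were 1159.5, 1682 and 1522 FPKM at 10 dpi and 265, 296 and 249.6 FPKM at 21 dpi. Its genotypes overlapped at both ages, and the falls were -1.82 in WT and -2.52 in cpop1.

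LotjaGi4g1v0207900, which had the highest mean of the members in mature cpop1 nodules, 408 FPKM, had nearly the same fall in the genotypes, -1.43 and -1.44. Its WT libraries were at 574, 708 and 1287 FPKM at 10 dpi and at 173, 262 and 402 FPKM at 21 dpi. Its cpop1 libraries were at 934, 1172 and 1038 FPKM at 10 dpi and at 382, 478 and 365 FPKM at 21 dpi. About 37% of the young median was retained in either genotype, 37.1% in WT and 36.8% in cpop1.

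At the other end, many members were close to the detection floor in mature nodules. The median at 21 dpi was below 1 FPKM for 43 members in WT, for 32 in cpop1 and for 28 in both, whereas no member was below 1 FPKM by its median at 10 dpi. A level of at least 10 FPKM at 21 dpi in both genotypes was kept by 32 members. Listed at 0 in all 3 mature libraries were 3 members in WT and 3 in cpop1. LotjaGi1g1v0327900 was listed at 0 in all 6 mature libraries. In young nodules it stood at 1.30, 1.13 and 26.6 FPKM in WT and at 0.17, 1.48 and 1.78 FPKM in cpop1, so only WT replicate 3 was well above the floor. With the read depth unknown, how few fragments these low values rest on cannot be given.

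Within the limits set by the selection, the members leaned toward higher levels in cpop1. At 10 dpi the group median was higher in cpop1 for 117 members, lower for 32 and equal for 1, with a median log2 difference of 0.38. In mature nodules it was higher for 96, lower for 50 and equal for 4, with a median difference of 0.30. Over all tested features the median difference was 0.06 at 10 dpi and 0.04 at 21 dpi, and over the eligible genes it was 0.17 and 0.15. Higher in cpop1 at both ages were 84 members, and lower at both were 19. Another 31 were higher at 10 dpi and lower at 21 dpi, and 11 the reverse. Without WT 10 dpi replicate 3 the counts at 10 dpi were 119 higher and 31 lower, with a median difference of 0.44. These counts of direction have no share of all features beside them and are a description. By the group means of the limma fit the median difference over the members was smaller, 0.18 at 10 dpi and 0.23 at 21 dpi, and with library medians aligned it was 0.10 and 0.07, where all tested features had -0.06 and -0.11.

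**Figure D4:**
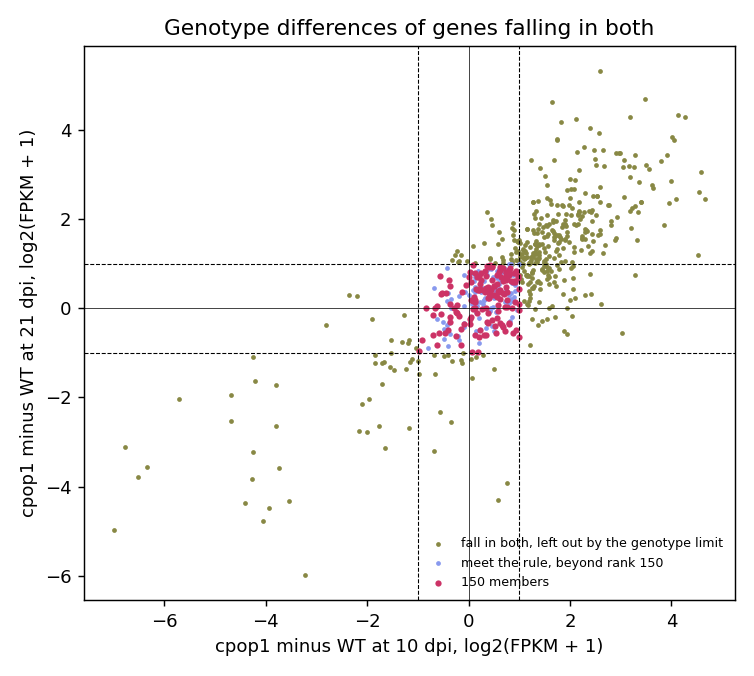
Difference between cpop1 and WT at 21 dpi (vertical) against that at 10 dpi (horizontal), on the log2(FPKM + 1) scale, for the 679 genes lower at 21 dpi by at least 1 in both genotypes; dashed lines mark the limits of 1 in either direction. Members and the 110 genes beyond rank 150 fill the central square by selection, and most genes outside it lie toward higher levels in cpop1 at both ages.

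The limit on the genotype difference removed more genes than it kept. Of the 679 genes lower at 21 dpi by at least 1 in both genotypes, it left out 419. At 10 dpi 312 of the 679 were higher in cpop1 by at least 1 and 47 lower, and at 21 dpi 275 were higher and 57 lower. No share of eligible genes that far apart is given, so these counts are a description. The eligible genes as a whole had median differences of 0.17 and 0.15 toward cpop1. The difference reached 1 at both ages for 272 genes. The 679 genes were 36.3% of the 1870 eligible genes with such a fall in WT and 28.2% of the 2410 with such a fall in cpop1. A fall of this size was met in WT alone by 1191 genes and in cpop1 alone by 1731, and a rise of at least 1 in both genotypes by 137.

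With all 12 libraries, the genotypes overlapped in single libraries for most members at 10 dpi and for fewer at 21 dpi. Without WT 10 dpi replicate 3 this order was reversed, though fewer libraries also leave less room for overlap. At 10 dpi all cpop1 libraries were above all WT libraries for 26 members, against 12.8% of tested features, and below them for 14, against 15.7%. Without WT 10 dpi replicate 3 these counts were 75, against 40.6% of features, and 21, against 33.6%. At 21 dpi they were above for 59 members, against 40.1%, and below for 21, against 36.2%. The same limma fit called 21 members between the genotypes at 10 dpi, against 22.7% of features, 16 higher in cpop1 (11.4%) and 5 lower (11.3%). It called 39 at 21 dpi, against 57.6%, 29 higher in cpop1 (29.2%) and 10 lower (28.4%). With library medians aligned, the calls were 12 higher and 7 lower at 10 dpi, against 11.8% and 11.1% of features, and 17 higher and 15 lower at 21 dpi, against 25.7% and 33%. Quantile normalization gave 16 higher and 9 lower at 10 dpi (12% and 11.8%) and 20 and 15 at 21 dpi (27.1% and 29.6%). A common total gave 14 and 8 at 10 dpi (10.9% and 13.1%) and 19 and 13 at 21 dpi (25.7% and 31.7%). At 10 dpi the members called numbered 73 without WT 10 dpi replicate 3, when 63.9% of features were called, 8 without replicate 1 (10.1%) and 10 without replicate 2 (9.36%). They numbered 6 and 9 without cpop1 10 dpi replicates 2 and 3 (10.6% and 13.3%). The count at 21 dpi was also 73 without WT 10 dpi replicate 3, though that library adds to this comparison through the common variance alone, and 71.2% of features were then called. They numbered 24 without WT 21 dpi replicate 1 (48.6% of features), and 23 and 25 without cpop1 21 dpi replicates 1 and 2 (47.9% and 48.4%). In each of these fits with a library left out, the share of all features called moved in the same direction as the members' count. With library medians aligned it did not. The members called were then fewer, 19 at 10 dpi and 32 at 21 dpi, and the shares of features slightly higher, 22.9% and 58.7%. Members 1 or more apart between genotypes had been left out, so these counts say nothing of genotype effects in general.

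Among young nodules the highest differences toward cpop1 were those of LotjaGi3g1v0384900 and LotjaGi4g1v0441000, each 0.99 on the log2 scale. LotjaGi3g1v0384900 was at 22.6, 36.3 and 36.0 FPKM in young cpop1 nodules against 17.35, 17.6 and 25.4 FPKM in WT, so the groups overlapped. In mature nodules it was at 7.18, 6.35 and 6.25 FPKM in cpop1 and at 5.90, 5.14 and 6.07 FPKM in WT. The gap between the genotypes had nearly closed there, at 0.09.

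LotjaGi5g1v0205800 and LotjaGi2g1v0441700 had the lowest cpop1 levels relative to WT at 10 dpi, with differences of -0.97 and -0.93. LotjaGi5g1v0205800 stood at 24.6, 29.0 and 12.8 FPKM in young WT and at 10.4, 12.03 and 14.0 FPKM in young cpop1 nodules. At 21 dpi it stood at 8.48, 9.02 and 8.44 FPKM in WT and at 3.51, 4.76 and 3.91 FPKM in cpop1. The genotypes were apart at 21 dpi, and at 10 dpi they overlapped only through WT replicate 3. LotjaGi2g1v0441700 was at 31.4, 49.7 and 68.0 FPKM in young WT and at 23.95, 27.3 and 25.6 FPKM in young cpop1 nodules. In mature nodules it was at 8.11, 10.5 and 8.99 FPKM in WT and at 5.44, 5.11 and 3.58 FPKM in cpop1, and the genotypes did not overlap at either age.

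In mature nodules LotjaGi3g1v0463000 and LotjaGi3g1v0322200 were the highest in cpop1 relative to WT, by 0.98 and 0.97. LotjaGi3g1v0463000 stood at 22.5, 28.8 and 26.8 FPKM in WT libraries of 21 dpi and at 68.7, 53.7 and 46.0 FPKM in those of cpop1. At 10 dpi it was at 124.75, 111 and 307 FPKM in WT and at 151.2, 167 and 186 FPKM in cpop1, where WT replicate 3 made the genotypes overlap. LotjaGi3g1v0322200 stood at 8.37, 7.07 and 11.3 FPKM in young WT nodules and at 10.9, 8.94 and 8.52 FPKM in young cpop1 nodules. At 21 dpi its values were 0.21, 0.84 and 0.86 FPKM in WT, below 1.97, 3.06 and 2.61 FPKM in cpop1. The genotypes overlapped at 10 dpi and were apart at 21 dpi.

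LotjaGi4g1v0208100 and LotjaGi2g1v0434500 were the lowest in cpop1 relative to WT at 21 dpi, with differences of -0.99 and -0.97. LotjaGi2g1v0434500 had 37.8, 38.45 and 36.0 FPKM in WT libraries of 21 dpi and 19.3, 17.5 and 18.8 FPKM in those of cpop1. Its young levels were 80.1, 94.8 and 101 FPKM in WT and 82.4, 99.7 and 119.65 FPKM in cpop1. Young nodules of the genotypes overlapped and mature ones were clearly apart, with closely grouped replicates.

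For most members the falls in the genotypes were of like size, which the limit on the genotype difference favours. The fall was larger in cpop1 for 81 members and larger in WT for 69, and the difference was under 0.5 on the log2 scale for 95. No share of all features stands beside these counts, so nothing is read from them. The difference, cpop1 minus WT, ranged from -1.63 to 1.29 with a median of -0.05, and the selection keeps it below 2 in size. The limma test of this difference called 17 members, 10 with the more negative change in cpop1 and 7 in WT, against 20%, 10.2% and 9.71% of features. Without WT 10 dpi replicate 3 it called 20 and 12, against 21.7% and 17.1%. The median of the fitted difference over the members was 0.04 with all libraries and -0.16 without that one. Over all tested features it was -0.01 and -0.07.

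LotjaGi2g1v0324400 and LotjaGi3g1v0192300 had falls that were larger in WT by most. LotjaGi2g1v0324400 was at 18.2, 19.15 and 26.8 FPKM in young and 0.94, 1.57 and 0.96 FPKM in mature WT nodules. In cpop1 it was at 12.7, 12.7 and 17.3 FPKM in young and 5.19, 1.63 and 2.25 FPKM in mature nodules. Its fall was -3.36 in WT and -2.07 in cpop1, and the mature cpop1 libraries were all above those of WT. LotjaGi3g1v0192300 was at 25.5, 25.9 and 40.2 FPKM in young and 3.32, 4.05 and 5.98 FPKM in mature WT nodules, against 19.4, 19.8 and 19.6 FPKM and 7.39, 5.56 and 6.88 FPKM in cpop1. The falls were -2.41 and -1.39.

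LotjaGi4g1v0441000 and LotjaGi6g1v0347800 had falls that were larger in cpop1 by most. LotjaGi6g1v0347800 was at 72.8, 70.65 and 70.3 FPKM in young and 19.9, 21.9 and 16.9 FPKM in mature WT nodules. In cpop1 it was at 137, 146 and 128 FPKM in young and 13.9, 15.5 and 13.4 FPKM in mature nodules. The cpop1 libraries were above those of WT at 10 dpi and below them at 21 dpi without overlap, and the falls were -1.78 in WT and -3.21 in cpop1. LotjaGi4g1v0441000 stood at 64.9, 97.7 and 348 FPKM in young and 52.3, 22.6 and 42.1 FPKM in mature WT nodules, against 109.65, 195 and 210.4 FPKM and 26.65, 27.3 and 23.2 FPKM in cpop1. Its young WT libraries were widely spread, and the fall of -1.20 in WT rests on their median.

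In pairs with replicate 3, the young WT replicates agreed less than those of any other group, over the members and over all tested features. The median absolute gap on the log2 scale was 0.19 between replicates 1 and 2, 0.81 between 1 and 3, and 0.60 between 2 and 3. In the other groups it lay between 0.17 and 0.39. Over all tested features the corresponding gaps were 0.14, 0.67 and 0.63 in young WT nodules, and between 0.13 and 0.28 in the other groups. Replicate 3 was the highest of the 3 young WT libraries for 110 members (73.3%), where 53.9% of tested features and 61.9% of eligible genes had it highest. It was above both others by at least 1 for 36 members (24%), against 18.7% of features and 22.4% of eligible genes, and below both by at least 1 for 5 (3.33%), against 8.8% and 5.48%. The median of its gap to the mean of replicates 1 and 2 was 0.56 over the members, 0.18 over tested features and 0.34 over eligible genes. Read from replicate 3 alone, the WT fall was at least 1 for 139 members, with a median of -2.15.

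**Figure D5:**
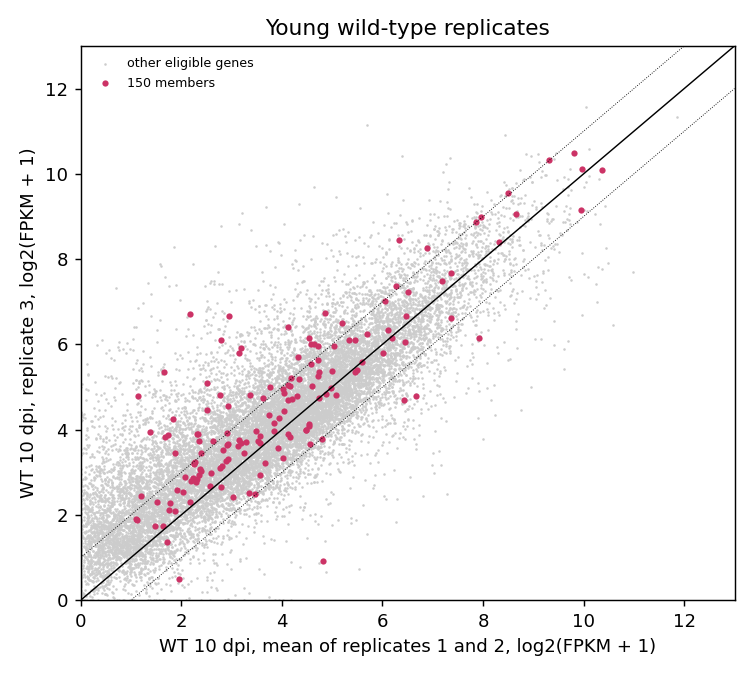
Level in WT 10 dpi replicate 3 (vertical) against the mean of replicates 1 and 2 (horizontal), both as log2(FPKM + 1), for the 150 members over the other eligible genes; the solid line marks equal levels and dotted lines a gap of 1. Members above the upper dotted line were far more frequent than members below the lower one, 36 being above both other replicates by at least 1 and 5 below both.

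LotjaGi1g1v0154100 was the member with replicate 3 farthest above, by 4.52 on the log2 scale. Its young WT libraries were at 4.49, 2.76 and 103 FPKM and its young cpop1 libraries at 2.43, 6.11 and 7.27 FPKM. In mature nodules it was at 0, 0.40 and 0.08 FPKM in WT and listed at 0 in all 3 libraries of cpop1. Replicate 3 thus stood far above every other library of the series. LotjaGi3g1v0256700 showed the same order, with 7.01, 6.45 and 99.8 FPKM in young WT and 5.66, 12.2 and 16.4 FPKM in young cpop1 nodules. Its mature levels were 0.52, 1.5 and 0.35 FPKM in WT and 0.12, 0 and 0.06 FPKM in cpop1.

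LotjaGi6g1v0331100 was the member with replicate 3 farthest below, by -3.92. Its WT libraries were at 35.6, 21.0 and 0.88 FPKM at 10 dpi and at 7.83, 7.71 and 26.9 FPKM at 21 dpi, so the ages overlapped widely. The cpop1 libraries were at 17.7, 16.1 and 22.9 FPKM at 10 dpi and at 2.50, 7.15 and 8.85 FPKM at 21 dpi, with no overlap. Its WT fall of -1.32 turned to a rise when means replaced medians or when young WT replicate 1 or 2 was left out. LotjaGi6g1v0046700 followed, at 110.4, 92.9 and 26.8 FPKM in young WT and 112, 119 and 73.0 FPKM in young cpop1 nodules. Its mature levels were 27.6, 39.3 and 33.0 FPKM in WT and 32.75, 35.15 and 25.7 FPKM in cpop1, and young WT replicate 3 lay below all mature WT libraries.

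In young cpop1 nodules replicate 1 was the lowest of the 3 libraries for 93 members (62%), against 43.3% of tested features and 44.4% of eligible genes. Of the 36 members with WT replicate 3 high, it was lowest for 26 (72.2%), against 57.9% of the tested features and 58.1% of the eligible genes with WT replicate 3 equally high. What sets these libraries apart was not tested.

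The choice of the 150 genes depended on the young WT libraries more than on any others. When a library was left out and the selection was repeated on the other 11, between 128 and 141 of the 150 were chosen again for 10 of the 12 libraries. Without WT 10 dpi replicate 1 only 63 were chosen again, and without replicate 2 only 67, since 650 and 591 genes then met the rule in place of 260. Of the present members, 137 still met every threshold in either case and were in part displaced by genes with larger falls. Without replicate 3, 218 genes met the rule and 128 members were chosen again.

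Each library was then read for genes chosen without it. The reading was against the median of the other age, which had itself served to choose those genes. No share of all features is given beside the counts, so they are a description and no independent evidence of a fall. Of 150 genes chosen without WT 10 dpi replicate 1, 84 showed a fall of at least 1 from that library to the mature WT median, and 148 showed some fall. For young WT replicates 2 and 3 the counts at 1 or more were 109 and 134. For the mature WT libraries they were 138, 139 and 138, for the young cpop1 libraries 123, 146 and 146, and for the mature cpop1 libraries 147, 147 and 145. Some fall was seen for 146 to 150 genes in every library. The median fall read in this way was lowest, at 1.19, from WT 10 dpi replicate 1 and highest, at 2.08, from WT 10 dpi replicate 3.

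The IDs place members on all 6 chromosomes, 29 on chromosome 1, 26 on 2, 27 on 3, 25 on 4, 21 on 5 and 22 on 6. These were between 0.655% and 1.11% of the eligible genes of a chromosome, lowest on chromosome 1 and highest on chromosomes 2 and 6, against 0.898% over all. The last 7 digits of an ID were read as its order along the chromosome, which was not checked against an annotation. There were 7 pairs of members within 300 of each other in that number, 14 genes in all, and 2 of the pairs were 100 apart. Reads of near-identical neighbouring copies could have been shared between them in the authors' quantification, so equal levels in a pair are uncertain.

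LotjaGi1g1v0327800 and LotjaGi1g1v0327900 formed a pair 100 apart, the longest run of such steps being 2 genes. LotjaGi1g1v0327800 was at 7.50, 6.90 and 4.33 FPKM in young and 0.14, 0.39 and 0.38 FPKM in mature WT nodules, and at 4.44, 4.85 and 4.20 FPKM and 0.82, 0.73 and 0.70 FPKM in cpop1. It lacked the high value that its neighbour showed in WT replicate 3. LotjaGi4g1v0208100, 200 from LotjaGi4g1v0207900, was at 247, 249 and 507 FPKM in young and 63.4, 95.4 and 103 FPKM in mature WT nodules. In cpop1 it was at 172, 284 and 320.3 FPKM and then at 52.8, 44.8 and 47.55 FPKM. Its neighbour had mature cpop1 levels above the WT median, and LotjaGi4g1v0208100 had them below every mature WT library.

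Some features outside the annotated class also met the thresholds. Among eligible features with IDs ending in _LC, 29 of 2448 (1.18%) met them, and among those with BGI_novel IDs 28 of 2953 (0.948%), against 260 of 16701 annotated genes (1.56%). Of 56 eligible organelle features 2 did (3.57%). These rates were not compared by a test.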

How the data were processed

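RNA sequencing libraries from root nodules, 12 in all, were grouped by the genotype and age in their titles. The authors deposited FPKM, per the file header, with 1 column per library and 2 decimals. The submitters' processing notes name HISAT and Bowtie2 2.2.5 with no role; for the genome build, annotation and FPKM tool nothing is stated: not given in the sources used here. Each deposited FPKM value is scaled within its library, so a change in abundant transcripts shifts all others.

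Levels were taken as log2(FPKM + 1). The members and lists were chosen with earlier results of these data known. The 5 lists of gene symbols that had been set could not be applied, since 0 IDs matched any of 40429 RefSeq rows (assembly LjGifu_v1.2). Group means were fitted in a linear model over 22249 features with at least 1 FPKM in 3 libraries (limma 3.58.1 in R 4.3.3, intensity trend, Benjamini-Hochberg adjusted p under 0.05) and tested on simulated data. Its p-values rest on the spread between these libraries alone, which may be technical. Genes named are extremes of rank, level, genotype difference, difference of falls or WT 10 dpi replicate 3, at most 2 in a direction, plus the longest ID run. Python 3.11.15, NumPy 2.4.6, pandas 2.3.3 and matplotlib 3.10.9 were used. Alternatives were other pseudocounts, filters, scalings, group means, all feature classes, a replicate block, library weights, only the groups compared and each library left out; counts of overlap and genotype direction without WT 10 dpi replicate 3 were added after seeing the data.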

Additional observations from a re-analysis of the deposited data

Results flagged for a closer look

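A test of the difference itself (limma, adjusted p under 0.05) called 17 members for an age change that differed between cpop1 and WT, against 20% of tested features. The selection limits how far the falls can differ, so nothing is read from this count. It was 32 without WT 10 dpi replicate 3, against 38.9% of features. It was 6, 8 and 9 without WT 21 dpi replicates 1 to 3, against 14.4%, 14.1% and 13.6%. It was 10, 7 and 8 without cpop1 10 dpi replicates 1 to 3, against 17.4%, 13.4% and 15.8%. It was 6, 10 and 6 without cpop1 21 dpi replicates 1 to 3, against 12.8%, 13.4% and 14%. Named genes are extremes of these same values, some of them of the difference itself, so a call for one is no evidence. Of the named genes that the fit to all libraries called, the change was more negative in cpop1 for LotjaGi2g1v0247000 (-0.84 on the log2 scale), LotjaGi2g1v0434500 (-1.09), LotjaGi4g1v0268300 (-1.67) and LotjaGi6g1v0347800 (-1.36). It was less negative in cpop1 for LotjaGi2g1v0324400 (1.36), LotjaGi3g1v0192300 (1.09) and LotjaGi3g1v0322200 (1.04). Named genes that were not called differed in both directions too, among them LotjaGi4g1v0441000 (-0.84) and LotjaGi3g1v0463000 (1.02). All of these values are differences of group means, unlike the falls given in the Results, which are differences of medians. By medians LotjaGi2g1v0247000, for example, differed by -0.67.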

How the results depend on the processing

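Under the planned settings other than leaving out a library, 123 to 150 members kept falls of at least 1 in both genotypes. The number of genes meeting the rule was 405 with means, 133 with library medians aligned, 157 with quantile normalization and 403 at a common total, against 260. Those chosen again numbered 91 with means and 86 with a pseudocount of 0.1, where the median falls were -2.11 in WT and -2.11 in cpop1. Aligning the medians moved the change over all features from -0.18 to 0.11 in WT and from -0.20 to 0.08 in cpop1, and the members' median falls to -1.38 and -1.42. Members called between genotypes at 10 dpi numbered 13 with a pseudocount of 0.1 (21% of all features), 114 with library weights (83.5%) and 1 in a fit to those groups alone (3.06%), against 21 (22.7%). At 21 dpi they numbered 88 with weights (75.6%) and 81 in the fit to those groups (73%), against 39 (57.6%), and weights gave 64 differences of age change (59.9%), against 17 (20%). With single libraries left out, the genes meeting the rule ranged from 218 to 650 and members chosen again from 63 to 141. Members called between genotypes at 10 dpi then ranged from 6 (10.6% of features) to 73 (63.9%), and at 21 dpi from 23 (47.9%) to 73 (71.2%). Differences of age change ranged from 6 (12.8% to 14.4%) to 32 (38.9%). Members called lower with age ranged from 137 (16.6%) to 148 (29.4%) in WT and from 127 (13.7%) to 149 (36.8%) in cpop1. Members with all cpop1 libraries above WT at 10 dpi numbered 75 without WT 10 dpi replicate 3 (40.6%), against 26 (12.8%). LotjaGi6g1v0331100 changed in WT by 0.17 with means and by 0.46 and 0.09 without WT 10 dpi replicate 1 or 2 (-1.68 without replicate 3). The cause was not tested. Replicate numbers gave no general pairing of the libraries: 4 of 18 same-numbered pairs had deviations correlated above 0.1, and 13 of 36 comparisons favoured the own number. The highest of these correlations were between WT and cpop1 at 10 dpi, 0.27 for replicate 1 and 0.22 for replicate 3, with -0.06 for replicate 2. A differently numbered pair of that age, WT replicate 2 and cpop1 replicate 1, reached 0.19. Whether libraries of 1 number and age were handled together was not tested. A replicate block gave 145 members called lower in WT (23.8% of features) and 138 in cpop1 (20.8%). It gave 23 between genotypes at 10 dpi (21.8%), 44 at 21 dpi (57.6%) and 13 differences of age change (18.5%). The read depth is unknown, which limits what low values can show.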
